A study of Mus musculus with 6 samples.

Results

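The genes described here are the heat shock proteins of the cytosol, their co-chaperones and the cytosolic chaperonin. They are 36 genes picked by name from a deposited table of 30077 mouse genes, and all 36 were found in it. RNA was sequenced from bEnd.3 cells, an established mouse brain endothelial cell line labelled as wild type. In the mitochondria group, cells were given isolated mitochondria of the osteocyte-like mouse line MLO-Y4 in 100 µl of medium (3 libraries). In the control group, cells received an equal amount of medium without mitochondria (3 libraries), and RNA was taken after 24 h in both groups. The control therefore matches the volume of medium, and no group given other material in place of mitochondria is among the samples. The labels do not tell whether the 3 libraries of each group are separate cultures; p-values then cover the spread between these libraries alone, and that spread may be technical.

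Heat shock proteins are molecular chaperones: they bind unfolded or partly folded proteins and help them fold, refold or be handed to the degradation machinery. HSP70 proteins take up unfolded stretches in a cycle driven by ATP, J-domain proteins deliver clients to them, and HSP110 and BAG proteins release the nucleotide. HSP90 acts later, on nearly folded clients such as kinases and steroid receptors, with the help of its own co-chaperones. The chaperonin CCT (also TRiC) is a double ring of related subunits that folds actin and tubulin. When unfolded proteins accumulate, the transcription factor HSF1 is released from chaperones and raises transcription of genes such as Hspa1a, Hspa1b, Hsph1, Dnajb1 and Hspb1. In endothelial cells HSP90 is also known as a partner of endothelial nitric oxide synthase.

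Totals ranged from 59651087 to 63581460 counts in the mitochondria libraries and from 64609635 to 65576084 counts in the control libraries. All 10 endothelial markers examined had a mean level of at least 1 FPKM (fragments per kilobase of transcript, scaled to library depth). Their summed levels were 1044 to 1105 FPKM in mitochondria libraries and 1105 to 1109 FPKM in control libraries. FPKM ran lower with mitochondria in general. Its median log2 fold change over all tested genes was −0.05 (after adding 1), beside 0.001 for counts in edgeR's fit. In that fit Emcn was the only endothelial marker below 0. None of the 6 osteocyte markers found in the table reached 1 FPKM; the highest count of any of them in any library was 17, and Bglap was at 0 in all libraries. Of 6 pericyte and smooth muscle markers 1 reached 1 FPKM (Acta2), and so did 1 of the 5 immune markers found (Cd68, which encodes a lysosomal protein). The immune sum was 49.8 to 58.1 FPKM in mitochondria libraries and 36.9 to 38.9 FPKM in control libraries. Counts of ribosomal RNA (CT010467) and of Lars2 together took 4.37%, 7.92% and 6.60% of the mitochondria libraries, against 3.54%, 1.74% and 3.12% of the control libraries. The shares did not overlap between the groups, so a fit with them as a covariate can hardly tell them from the group. Their part in the results below was not tested beyond the fits named there.

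The response of the 36 genes was small. Testing needed 1 FPKM or more in 3 or more of the 6 libraries, which 35 of the 36 reached. Of these 35, 1 rose (Cryab, encoding the small heat shock protein alpha-B crystallin) and 1 fell (Hsp90ab1, encoding the constitutive HSP90), while 33 did not pass the test. A gene was called at a Benjamini-Hochberg adjusted p under 0.05 in edgeR's quasi-likelihood test over all tested genes. By that rule 2.09% of the 11255 tested genes were called, 0.986% as higher and 1.10% as lower, so 1 of 35 in each direction was not far from the background. At an unadjusted p under 0.05, 2 of the 35 were higher, beside 7.82% of all tested genes, and 5 were lower, beside 8.28%. The log2 fold changes of mitochondria over control ran from −0.18 to 0.52, with 11 above 0 and 24 below 0. Their median was −0.03, beside 0.001 over all tested genes. DESeq2, run on the same counts, called 5.31% of all genes and 5 of the 35, namely Cryab as higher and Hsp90ab1, Hsp90aa1, Cct2 and Cct4 as lower. The libraries of the groups did not overlap for 2 tested members that were higher (Cryab and Bag1), beside 10.1% of all tested genes. They did not overlap for 6 that were lower (Hsp90ab1, Hsp90aa1, Cct4, Cct2, Cct8 and Hspa4), beside 11.0% of all tested genes. In either direction the background share was 21.1%. In such bulk samples a lower level per cell and a smaller share of cells with a transcript cannot be told apart.

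**Figure D1:**
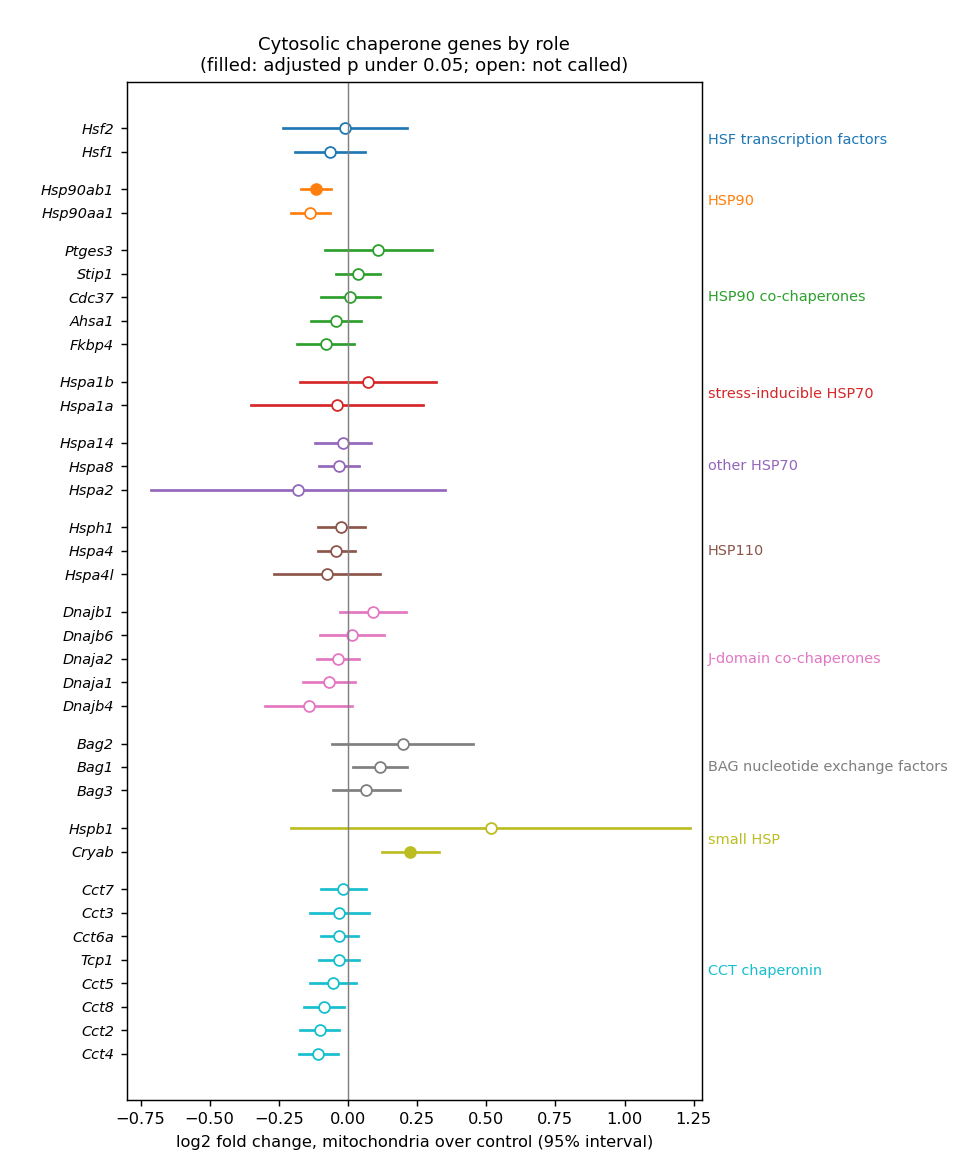
Log2 fold change of mitochondria over control for the 35 tested genes, grouped by role; points are edgeR estimates, bars are 95% intervals, and filled points are the genes with an adjusted p under 0.05 over all tested genes. Cryab lies to the right of 0 and Hsp90ab1 to the left, and all 8 chaperonin subunits lie between −0.11 and −0.02.

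HSF1 and HSF2 are the heat shock transcription factors. Hsf1, whose protein is the main switch of the heat shock response, had 47.8, 49.5 and 48.1 CPM (counts scaled to library size with edgeR's TMM factors) in the mitochondria libraries, against 49.8, 54.3 and 48.0 CPM in the control libraries. Hsf2 had 27.95, 28.7 and 25.2 CPM in the mitochondria libraries, against 23.8, 30.5 and 28.1 CPM in the control libraries. The groups overlapped for both genes, neither had an unadjusted p under 0.05, and DESeq2 called neither. Hsf1 had a log2 fold change of −0.07 (95% interval −0.19 to 0.06, adjusted p = 0.639 in edgeR's test). That of Hsf2 was −0.01 (95% interval −0.23 to 0.21, adjusted p = 0.977 in edgeR's test).

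The heat-inducible HSP70 genes Hspa1a and Hspa1b lie next to each other on chromosome 17 (GRCm38; Hspa1a at chr17:34969190-34972156 and Hspa1b at chr17:34956436-34959238, both on the minus strand). Their coding sequences are 99.6% identical, and the sources used here do not give the handling of reads that match both, so the split between the pair is uncertain. Their promoters are alike too. In windows from 250 bases before to 50 bases after the start (RefSeq, GRCm38.p6), they differed at 4 of 300 bases. HSF1 binds heat shock elements, which are inverted repeats of GAA; the pair searched for was GAANNTTC. The stretches below carry the repeat in capitals. Those of Hspa1a, Hspa1b and Hspb1 are shown because these genes are heat-inducible. Each of these stretches lies inside its RefSeq window, before the RefSeq start of its gene. The Dnajb6 line, from the gene of a J-domain protein, is shown because it holds a longer element of 3 repeats, which is GAANNTTC, any 2 bases and a further GAA. It lies before the RefSeq starts behind both Dnajb6 windows, but inside the gene as the deposited table has it (chr5:29735688-29818134).
Hspa1a, chr17:34972213-34972300, minus strand: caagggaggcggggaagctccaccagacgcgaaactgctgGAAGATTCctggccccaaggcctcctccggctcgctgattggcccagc
Hspa1b, chr17:34959295-34959382, minus strand: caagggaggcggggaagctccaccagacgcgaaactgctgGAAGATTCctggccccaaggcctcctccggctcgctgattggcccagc
Hspb1, chr5:135887762-135887869, plus strand: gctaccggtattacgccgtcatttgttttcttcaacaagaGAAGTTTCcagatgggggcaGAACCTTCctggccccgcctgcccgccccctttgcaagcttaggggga
Dnajb6, chr5:29735812-29735897, plus strand: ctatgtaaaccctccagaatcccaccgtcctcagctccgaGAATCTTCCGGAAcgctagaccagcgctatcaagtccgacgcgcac

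The 88 bases printed for Hspa1a and Hspa1b are the same, with the repeat starting 104 bases before the start of each gene. No RefSeq window was found for Hsf1, Hsp90aa1, Hsp90ab1, Hspa8, Cryab and Cct4. RefSeq windows were found for the other 30 of the 36 genes. GAANNTTC, which is its own reverse complement and is contained in the longer element, occurred in windows of 10 of them (Bag3, Cct2, Dnaja1, Dnajb6, Fkbp4, Hspa1a, Hspa1b, Hspb1, Hspb8 and Hsph1) and of 9.04% of the 27025 genes with a window. The longer element, searched on both strands, occurred in 2 of the 30 (Dnajb6 and Hsph1) and in 0.662% of all genes. A match says only that these letters are in the window. Of the 10 genes with the shorter repeat 9 were tested, and none was called by edgeR. Cryab and Hsp90ab1, the members that edgeR called, had no window. The count of edgeR calls thus says nothing on genes with the repeat. Of the 9 tested, 1 had an unadjusted p under 0.05 (Cct2, lower), beside 8.28% of all tested genes. DESeq2, which called 5.31% of all tested genes, called Cct2.

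Neither inducible HSP70 gene differed between the groups beyond the spread of the libraries. Hspa1a had 8.41, 7.95 and 6.51 CPM in the mitochondria libraries, against 8.02, 8.18 and 7.31 CPM in the control libraries. Hspa1b had 20.2, 17.5 and 17.4 CPM in the mitochondria libraries, against 19.9, 16.5 and 16.0 CPM in the control libraries. In both groups library 1 was the highest for Hspa1b, and the ranges overlapped for both genes. The log2 fold change was −0.04 for Hspa1a (95% interval −0.35 to 0.27, adjusted p = 0.927 by edgeR). For Hspa1b it was 0.07 (95% interval −0.17 to 0.32, adjusted p = 0.808 by edgeR). Their sum was 26.0 ± 2.39 CPM in the mitochondria group and 25.3 ± 2.38 CPM in the control group (SD, n = 3 each). This sum does not depend on how shared reads were split, but would if they were dropped or counted for both genes.

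Hspa8 encodes the constitutive HSP70 (HSC70), which also uncoats clathrin vesicles. It had 1327, 1265 and 1228 CPM in the mitochondria libraries, against 1333, 1279 and 1297 CPM in the control libraries. The groups overlapped, and the log2 fold change was −0.03 (95% interval −0.10 to 0.04, adjusted p = 0.688 in edgeR's test). Per length, Hspa8 stood 32.6 ± 1.68 times above Hspa1a and Hspa1b together in the mitochondria group and 34.4 ± 2.67 times above them in the control group (ratio of FPKM, SD, n = 3 each). The remaining cytosolic HSP70 genes were Hspa2, known for its part in spermatogenesis, and Hspa14, whose product associates with the ribosome. Their log2 fold changes were −0.18 for Hspa2, with an SE of 0.24, and −0.02 for Hspa14, with an SE of 0.05, and neither passed the test. Hspa14 overlaps Gm45902 on the same strand over 8264 bases, and counts given to Gm45902 came to at most 15.2% of those of Hspa14.

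HSP110 proteins are relatives of HSP70 that act as its nucleotide exchange factors. None of the 3 passed edgeR's test, had an unadjusted p under 0.05 or was called by DESeq2, and all 3 log2 fold changes were below 0. Hsph1, the heat-inducible one, had 161, 170.2 and 163 CPM in the mitochondria libraries, against 167, 165 and 169.9 CPM in the control libraries. The groups overlapped and the log2 fold change was −0.02 (95% interval −0.11 to 0.06). Hspa4 had 449, 460.3 and 447 CPM in the mitochondria libraries, against 464, 460.5 and 472 CPM in the control libraries. Those groups stood apart by less than 1 CPM, and the adjusted p of Hspa4 was 0.553 by edgeR. Hspa4l, at lower levels, had a log2 fold change of −0.08 with a 95% interval of −0.27 to 0.11.

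J-domain proteins stimulate the ATPase of HSP70, and none of the 5 examined passed edgeR's test, had an unadjusted p under 0.05 or was called by DESeq2. Dnajb1 (HSP40), the heat-inducible member, had 57.5, 62.0 and 63.7 CPM in the mitochondria libraries, against 54.8, 57.8 and 59.5 CPM in the control libraries. The ranges overlapped, with the lowest mitochondria library below 2 of the control libraries. Dnajb1 thus had a log2 fold change of 0.09 (95% interval −0.03 to 0.21, adjusted p = 0.465 in edgeR's test). Dnajb4 had a log2 fold change of −0.14 (95% interval −0.30 to 0.01), Dnaja1 of −0.07, Dnaja2 of −0.04 and Dnajb6 of 0.02. Of the 5, 2 were thus above 0 and 3 below.

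BAG proteins release ADP from HSP70 through a shared domain; BAG1 links HSP70 to the proteasome and BAG3 links it, with small heat shock proteins, to autophagy. All 3 genes had log2 fold changes above 0, and none was called by edgeR or DESeq2. Of the 3, 1 had an unadjusted p under 0.05 (Bag1, higher), beside 7.82% of all tested genes. Bag1 had 146, 139 and 139 CPM in the mitochondria libraries, against 133, 123 and 135 CPM in the control libraries. Every mitochondria library of Bag1 lay above every control library, with a log2 fold change of 0.11 (95% interval 0.02 to 0.21) and an adjusted p of 0.239 by edgeR. Bag3, a heat-inducible gene, had 114, 98.8 and 113 CPM in the mitochondria libraries, against 102, 103 and 107 CPM in the control libraries. Mitochondria library 2 was the lowest of the 6 for Bag3, and the log2 fold change was 0.07 (95% interval −0.05 to 0.19). Bag2 had a log2 fold change of 0.20 with a 95% interval of −0.06 to 0.45.

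Small heat shock proteins hold unfolded proteins in large oligomers without using ATP. Cryab (ENSMUSG00000032060, chr9:50751325-50756636, plus strand) encodes alpha-B crystallin, a major protein of the eye lens that is also made in muscle and other tissues. It had 126, 120.9 and 115 CPM in the mitochondria libraries, against 102, 99.7 and 108 CPM in the control libraries. Every mitochondria library was above every control library. The means were 121 ± 5.73 CPM in the mitochondria group and 103 ± 4.07 CPM in the control group (SD, n = 3 each). The log2 fold change was 0.23 (SE 0.05, 95% interval 0.12 to 0.33, adjusted p = 0.0341 in edgeR's test), a level 17.0% higher. The call was kept without mitochondria 3 (adjusted p = 0.0488 by edgeR). It was lost without mitochondria 1 (0.0903), mitochondria 2 (0.0646), control 1 (0.103), control 2 (0.139) or control 3 (0.0716, all adjusted p by edgeR), with log2 fold changes of 0.19 to 0.26 over the 6 fits. Scaling by library totals alone also ended it (log2 fold change 0.18, adjusted p = 0.0827 by edgeR), as did limma on log2(FPKM + 1) (adjusted p = 0.180). The call was also lost without the FPKM filter (adjusted p = 0.217 by edgeR) and with the ribosomal share as a covariate (0.773 by edgeR). That share did not overlap between the groups, so the covariate fit can hardly tell it from the group.

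Cryab shares 1030 bases with Hspb2, a small heat shock protein gene on the opposite strand (chr9:50751078-50752354). Whether counting used strand is not given in the sources used here. Counts given to Hspb2 came to at most 1.21% of those of Cryab. Hspb2 had 1.27, 1.33 and 1.02 CPM in the mitochondria libraries, against 0.749, 0.975 and 0.628 CPM in the control libraries. These groups did not overlap either. For Hspb2 edgeR gave an adjusted p of 0.350, at a log2 fold change of 0.62 with an SE of 0.31.

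The other small heat shock protein genes were at low levels. Hspb1 (HSP27), a heat-inducible gene whose product is also tied to actin filaments, had 5.02, 3.27 and 1.896 CPM in the mitochondria libraries, against 3.04, 2.39 and 1.70 CPM in the control libraries. The libraries overlapped, with the highest value in mitochondria 1 and the lowest in control 3. Its log2 fold change of 0.52 was the largest of the 35 and carried an SE of 0.33 (95% interval −0.21 to 1.24, adjusted p = 0.491 in edgeR's test). Hspb8, the partner of BAG3, had 68, 71 and 57 counts in the mitochondria libraries, against 62, 57 and 41 counts in the control libraries. Scaled, these were 1.07, 1.23 and 0.956 CPM with mitochondria, against 0.948, 0.842 and 0.628 CPM in controls. In CPM the groups thus narrowly did not overlap, beside 10.1% of all tested genes that were higher without overlap. The FPKM of Hspb8 stayed under 1 in every library, so Hspb8 was not tested. Its levels were 0.478 ± 0.0547 FPKM in the mitochondria group and 0.369 ± 0.0754 FPKM in the control group (SD, n = 3 each).

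**Figure D2:**
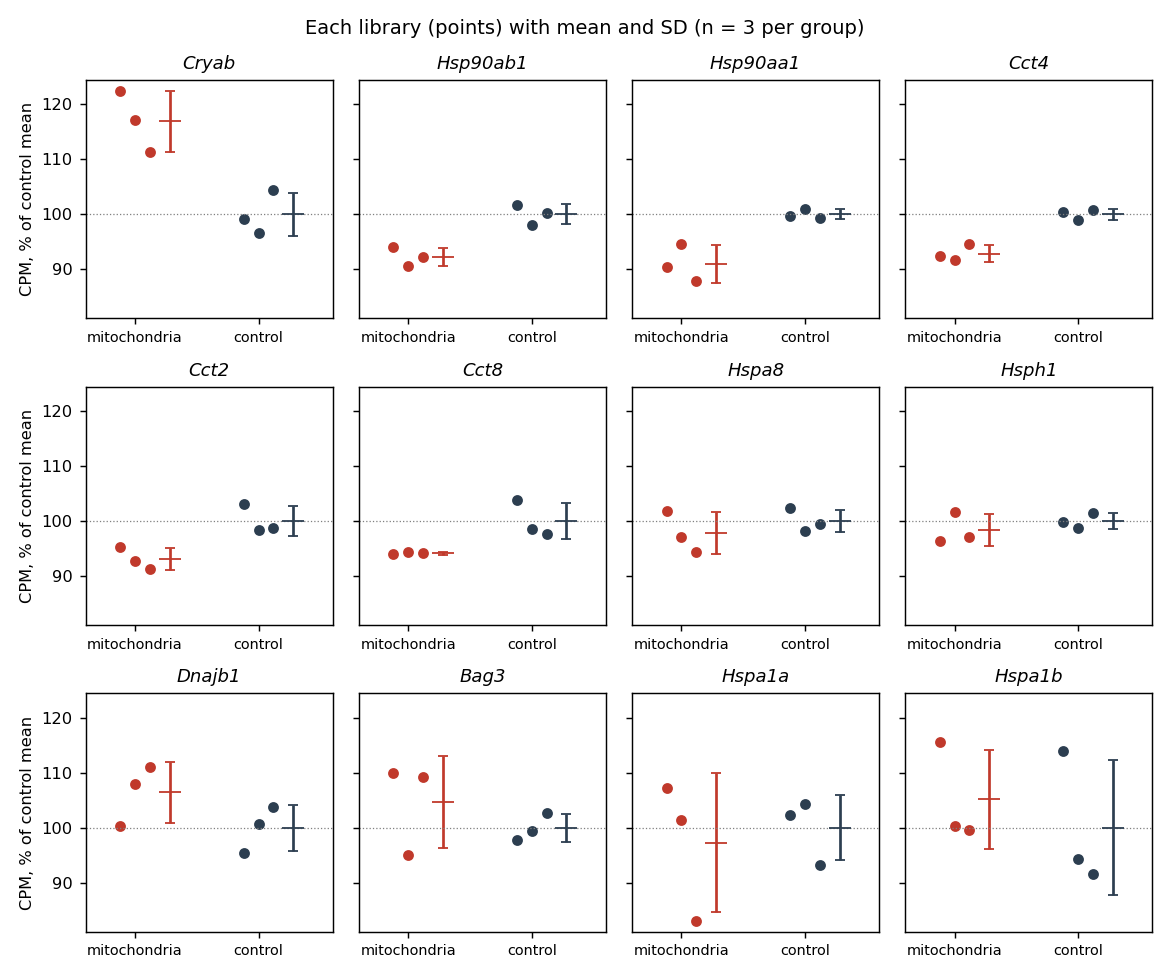
CPM of 12 genes in each library, as a percentage of the control mean of that gene; points are single libraries (mitochondria on the left of each pair, control on the right), and bars are the mean and SD of 3 libraries. The groups stand apart for Cryab (mitochondria above control) and for Hsp90ab1, Hsp90aa1, Cct4, Cct2 and Cct8 (mitochondria below control), and overlap for Hspa8, Hsph1, Dnajb1, Bag3, Hspa1a and Hspa1b.

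For both cytosolic HSP90 genes the mitochondria libraries lay below the control libraries, beside 11.0% of all tested genes. Of the pair 1 passed the test, beside 1.10% of all tested genes called lower. Hsp90ab1 (ENSMUSG00000023944, chr17:45567775-45573271, minus strand) encodes HSP90 beta, the constitutive form. It had 3010.3, 2904 and 2955 CPM in the mitochondria libraries, against 3257, 3143 and 3211 CPM in the control libraries. Every mitochondria library was below every control library, and the group means were 2957 ± 53.1 CPM with mitochondria and 3204 ± 57.5 CPM in controls (SD, n = 3 each). The log2 fold change was −0.12 (SE 0.03, 95% interval −0.17 to −0.06, adjusted p = 0.0385 in edgeR's test), and the percent change was −7.72%. The call was lost in each of the 6 fits that left out 1 library. There the log2 fold change was −0.13 to −0.10, with edgeR adjusted p-values of 0.0525 without mitochondria 1, 0.0946 without mitochondria 2 and 0.179 without mitochondria 3. The edgeR adjusted p-values were 0.120 without control 1, 0.0577 without control 2 and 0.158 without control 3. The call was also lost with limma on log2(FPKM + 1) (adjusted p = 0.101) and without the FPKM filter (adjusted p = 0.371 by edgeR).

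Hsp90aa1 (ENSMUSG00000021270, chr12:110690605-110702728, minus strand) encodes HSP90 alpha, the heat-inducible form. It had 912, 953.8 and 885 CPM in the mitochondria libraries, against 1005, 1018 and 1000.2 CPM in the control libraries. The groups did not overlap here either. The log2 fold change of −0.14 (SE 0.03, 95% interval −0.21 to −0.07) did not pass the test, with an adjusted p of 0.0539 by edgeR. It passed without mitochondria 2 (log2 fold change −0.17, adjusted p = 0.0241 by edgeR) and with library totals alone as scaling (log2 fold change −0.18, adjusted p = 0.0166 by edgeR). The coding sequences of the pair are 76.6% identical.

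The ratio of the pair was compared by library. The FPKM of Hsp90ab1 was 4.33, 3.99 and 4.38 times that of Hsp90aa1 in the mitochondria libraries, against 4.25, 4.05 and 4.21 times in the control libraries. The ratio of FPKM was 4.23 ± 0.211 in the mitochondria group and 4.17 ± 0.106 in the control group (SD, n = 3 each; two-sided exact permutation p = 0.6). Hsp90ab1 took 0.302%, 0.281% and 0.290% of all counts in the mitochondria libraries, against 0.328%, 0.325% and 0.324% in the control libraries. Without CT010467 and Lars2 in the totals, its share was 0.310% ± 0.00510 in the mitochondria group and 0.335% ± 0.00493 in the control group. For both shares the two-sided exact permutation p was 0.1, the smallest that 3 against 3 can give. With CT010467 and Lars2 left out of the fit, Hsp90ab1 (adjusted p = 0.0241) and Hsp90aa1 (adjusted p = 0.0446) both passed edgeR's test. With their summed share as a covariate neither did, nor did any of the 35, and 3 genes of all those tested were called. That share did not overlap between the groups, so the covariate can hardly be told from the group. In that fit Hsp90ab1 had a log2 fold change of −0.12 with an SE of 0.04.

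**Figure D3:**
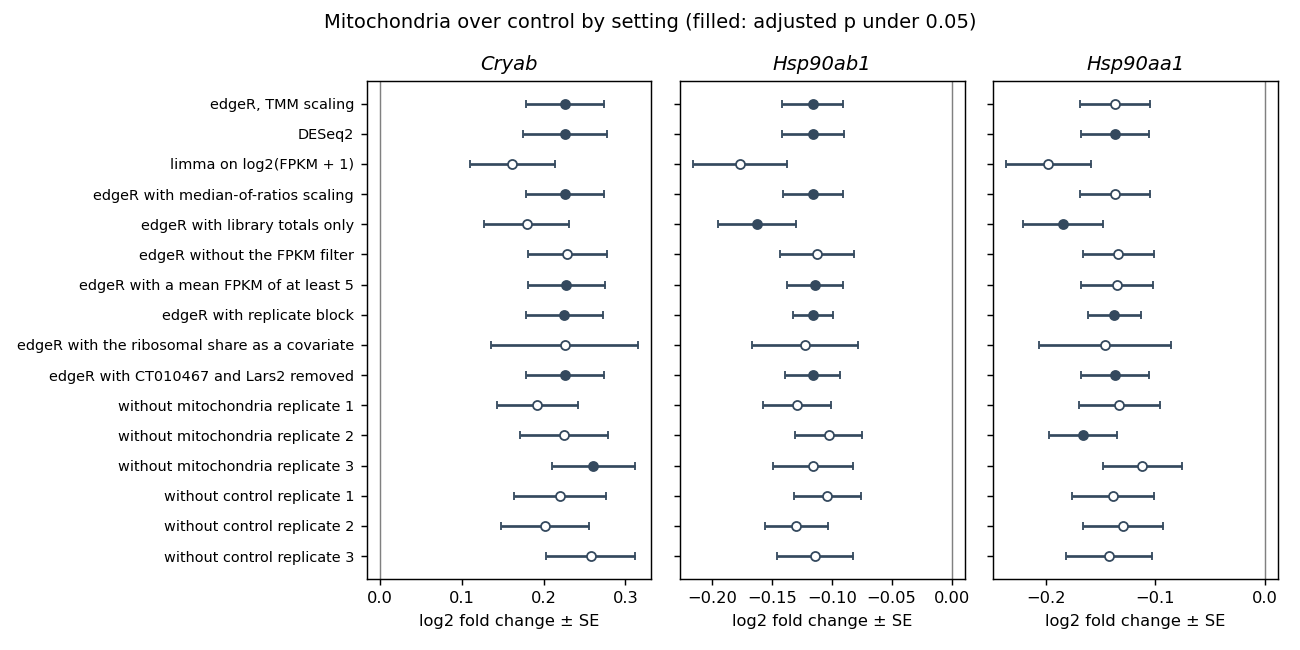
Log2 fold change of mitochondria over control for Cryab, Hsp90ab1 and Hsp90aa1 with edgeR and TMM scaling, in 9 other settings and in the 6 fits that left out 1 library; bars are SE and filled points are calls at an adjusted p under 0.05. Cryab stays above 0 and the HSP90 pair below 0 in every fit shown, while the calls come and go.

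The HSP90 co-chaperones had no common direction. STIP1 (HOP) bridges HSP70 and HSP90, CDC37 brings kinases, AHSA1 stimulates the HSP90 ATPase, PTGES3 (p23) stabilises its closed form and FKBP4 serves steroid receptors. None of the 5 genes was called by edgeR, none was below an unadjusted p of 0.05, and DESeq2 called none. The log2 fold changes were 0.11 for Ptges3 (SE 0.09), 0.03 for Stip1, 0.01 for Cdc37, −0.04 for Ahsa1 and −0.08 for Fkbp4 (SE 0.05). The signs of Stip1 and Cdc37 turned below 0 when counts were scaled by library totals alone.

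All 8 subunits of the CCT chaperonin had log2 fold changes below 0; none was called by edgeR, and 3 had an unadjusted p under 0.05, all lower, beside 8.28% of all tested genes. Their median was −0.04, beside 0.001 over all tested genes, and 3 subunits had libraries that did not overlap between the groups, beside 11.0% of all tested genes. Cct4 had 286, 284 and 293 CPM in the mitochondria libraries, against 311, 306 and 312 CPM in the control libraries. Cct2 had 644, 627 and 616 CPM in the mitochondria libraries, against 696, 664 and 666 CPM in the control libraries. Cct8 had 536, 538 and 537 CPM in the mitochondria libraries, against 592, 562 and 557 CPM in the control libraries.

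For these 3 subunits every mitochondria library was below every control library. Cct4 had a log2 fold change of −0.11 (95% interval −0.18 to −0.04, adjusted p = 0.130 by edgeR). It was −0.10 for Cct2 (95% interval −0.17 to −0.03, adjusted p = 0.144 by edgeR) and −0.09 for Cct8 (95% interval −0.16 to −0.02, adjusted p = 0.216 by edgeR). DESeq2 called Cct2 and Cct4, and edgeR called Cct4 with library totals alone as scaling (adjusted p = 0.0462). Cct8 overlaps Usp16 on the opposite strand, whose counts came to at most 13.9% of those of Cct8.

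The groups overlapped for the remaining 5 subunits. Cct5 had 489.8, 461 and 467 CPM in the mitochondria libraries, against 503, 468 and 501 CPM in the control libraries. Cct6a had 569, 553 and 552 CPM in the mitochondria libraries, against 577, 559.6 and 574 CPM in the control libraries. Tcp1, which encodes the alpha subunit, had 449, 436 and 439 CPM in the mitochondria libraries, against 466, 438 and 451 CPM in the control libraries. In each of these 3, and in Cct3 and Cct7 as well, the highest value was that of a control library. Cct3 had 355, 317 and 340.2 CPM in the mitochondria libraries, against 368, 331 and 335 CPM in the control libraries. Cct7 had 467, 432 and 459 CPM in the mitochondria libraries, against 471, 448 and 454 CPM in the control libraries. Their log2 fold changes were −0.05 for Cct5, −0.03 for Cct6a, Tcp1 and Cct3, and −0.02 for Cct7, with 95% intervals that include 0. Without mitochondria 2, and likewise without control 1, Cct3 and Cct7 were above 0 and 6 of the 8 subunits were below.

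Compared per length, the subunits of the ring were not at 1 level. Cct2 was the highest and Cct3 the lowest by FPKM in all 6 libraries, and the order Cct6a then Tcp1 was likewise the same in all 6. Cct8 and Cct5 changed places in mitochondria 1 and in control 3, and Cct4 and Cct7 did so in mitochondria 1. The highest subunit stood 4.65 ± 0.232 times above the lowest in the mitochondria group and 4.89 ± 0.149 times in the control group (ratio of FPKM, SD, n = 3 each). FPKM depends on the transcript length used for each gene. Subunit pairs are at most 59.5% identical in coding sequence.

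By FPKM the 36 genes spanned a wide range. Hsp90ab1 was the highest, at 854 ± 34.8 FPKM in the mitochondria group and 964 ± 5.49 FPKM in the control group (SD, n = 3 each). Hspa8 followed, at 256 ± 14.8 FPKM in the mitochondria group and 273 ± 3.34 FPKM in the control group. As given above, FPKM ran lower in the mitochondria group over all tested genes. Cct2, Hsp90aa1 and Cct8 came next, and the lowest was Hspb8. The inducible HSP70 genes Hspa1a and Hspa1b lay low in this order, unlike the heat-inducible Hsp90aa1. Hspa1b was at 5.67 ± 0.611 FPKM in the mitochondria group and 5.61 ± 0.646 FPKM in the control group. Of the 35 pairs of neighbours in the order, the libraries of the pair overlapped for 13 in the mitochondria group and for 12 in the control group. All 36 genes together took 1.16% ± 0.0374 of the counts in the mitochondria group and 1.26% ± 0.00878 in the control group. Without CT010467 and Lars2 in the totals, these shares were 1.24% ± 0.0182 in the mitochondria group and 1.29% ± 0.0181 in the control group.

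**Figure D4:**
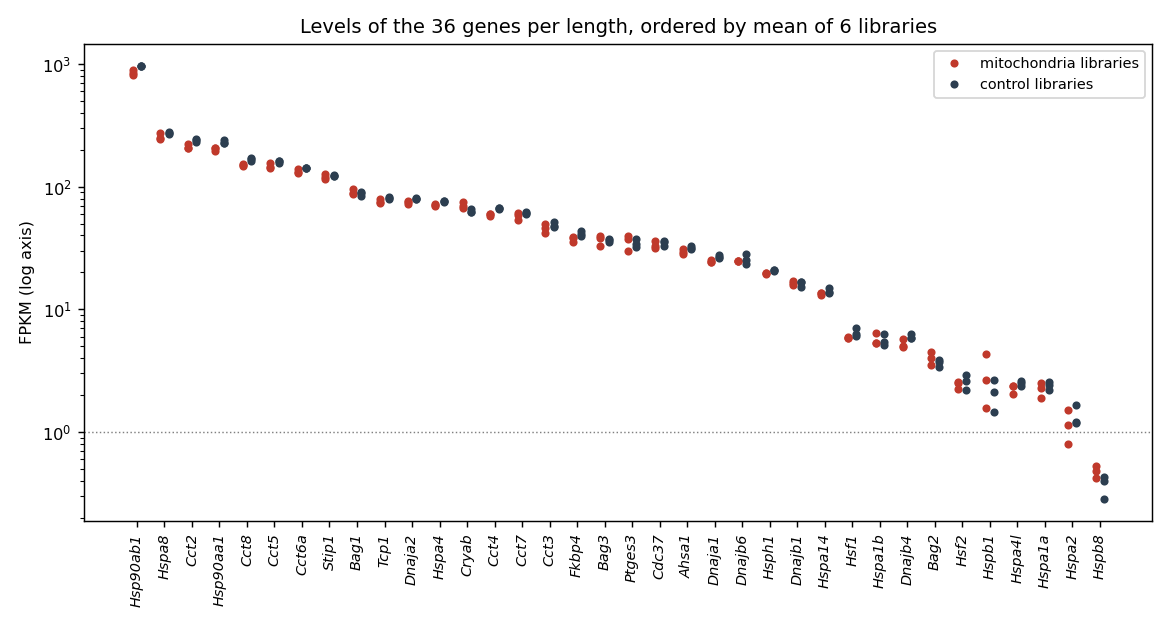
FPKM of the 36 genes on a log axis, ordered by their mean over all libraries; each point is 1 library, with mitochondria and control libraries in different colours. The order runs from Hsp90ab1 to Hspb8, and within most genes the points of both groups fall together.

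The spread between libraries was small beside these levels. Among the 27 members averaging 50 CPM or more, the SD over the mean had a median of 3.16% in the mitochondria group and 3.14% in the control group. For all 4409 genes at such levels that median was 3.70% in the mitochondria group and 3.27% in the control group.

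Chaperone genes outside the 36 were followed in 7 lists of 78 genes, of which 71 were tested. Of these 71, 1 rose and none fell, 36 were above 0 and 35 below, and DESeq2 called 4. Over all tested genes edgeR called 0.986% higher and 1.10% lower and DESeq2 called 5.31%, so these counts were near the background. The gene that rose was Hspa12b, a distant HSP70 relative known from endothelial cells, among 16 tested HSP70 relatives and co-chaperones. Of these 16, 10 were below 0, and 3 were lower at an unadjusted p under 0.05, beside 8.28% of all tested genes. These 3 did not pass the adjusted test: Dnajb5 (log2 fold change −0.30), Dnajc21 (−0.25) and Dnajc7 (−0.10). Hspa12b had 66.3, 72.1 and 76.0 CPM in the mitochondria libraries, against 56.0, 57.1 and 57.8 CPM in the control libraries. The groups did not overlap, and the log2 fold change was 0.33 (SE 0.05, 95% interval 0.21 to 0.45, adjusted p = 0.0116 in edgeR's test). The call was lost without mitochondria 3 (log2 fold change 0.28, adjusted p = 0.0627 by edgeR) and without control 3 (0.34, adjusted p = 0.0542 by edgeR). It was also lost with limma (adjusted p = 0.0920), without the FPKM filter (0.119 by edgeR) and with the ribosomal share as a covariate (0.773 by edgeR). As said above, that share can hardly be told from the group.

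None of the 11 mitochondrial chaperone and protease genes was called by edgeR. At an unadjusted p under 0.05, 1 was higher and 1 lower, beside 7.82% higher and 8.28% lower over all tested genes. DESeq2, which called 5.31% of all tested genes, called Hspd1 as lower. Hspd1, which encodes the chaperonin HSP60 of the mitochondrial matrix, had 733, 725 and 707 CPM in the mitochondria libraries, against 771, 770.4 and 812 CPM in the control libraries. The groups did not overlap, with a log2 fold change of −0.12 (SE 0.03) and an adjusted p of 0.0854 by edgeR. None of the 15 chaperone genes of the endoplasmic reticulum was called by edgeR or DESeq2, and none had an unadjusted p under 0.05. The one with the lowest p, Pdia4, encoding a disulfide isomerase, had a log2 fold change of 0.09 (SE 0.04).

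The other lists had no call by edgeR. Among 13 further HSP90 co-chaperones, 2 had an unadjusted p under 0.05, both higher, beside 7.82% of all tested genes. DESeq2, which called 5.31% of all tested genes, called these 2. They were Nudcd3 (log2 fold change 0.14, SE 0.04) and Aarsd1 (log2 fold change 0.31, SE 0.10). Prefoldin and phosducin-like proteins hand clients to CCT or act with it. Among their 9 tested genes, 1 was lower at an unadjusted p under 0.05, beside 8.28% of all tested genes. That was Pdcl3, at a log2 fold change of −0.14 with an SE of 0.05. The 4 further tested genes of small heat shock proteins and heat shock factors, Hspb2 among them, were all above 0 with a median of 0.11, and none had an unadjusted p under 0.05. Of 3 other heat-inducible genes, Ubb, which encodes a polyubiquitin, had the lowest p (0.263 after adjustment in edgeR's test, at a log2 fold change of 0.08).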

How the data were processed

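The deposited table gives, per gene and library, a whole-number count and an FPKM value, both made by the authors; per the file headers the counts are raw. The kits were, per the labels' protocols, a column kit for RNA and a stranded mRNA kit for libraries. The submitters' processing notes name GRCm38 as build and list StringTie 2.1.6, HISAT2 2.2.1, cutadapt 1.9, edgeR and DESeq2. What each tool did is not given in the sources used here, nor is the handling of strand and of reads shared between gene copies. FPKM was used for the filter and for levels between genes.

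Counts were tested with edgeR 4.0.16 in R 4.3.3 (TMM scaling, glmQLFit and glmQLFTest, group as the only term, two-sided), for genes at 1 FPKM or more in 3 or more of the 6 libraries. The SE is the size of the log2 fold change divided by the root of the F statistic. Alternatives used DESeq2 1.42.0 and limma 3.58.1 on log2(FPKM + 1). The pipeline was tested on simulated data. It recovered 40% of genes changed 1.2-fold, 70% of those changed 1.5-fold and 98% of those changed 2-fold. Changes under 1.2-fold were not simulated. Replicate libraries differed by more than sampling noise and were kept apart. Numbered libraries were not treated as pairs.

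The 36 genes, the lists and the tests were chosen with earlier results of these data known. Library values were given for genes past the test, the 6 lowest p-values and named heat-inducible, HSP90, HSP70 and CCT genes; from each other list, for called genes, and otherwise the gene with the lowest p was named. Values of Hspa4, Bag1, Hspb2, Aarsd1, Dnajb5, Dnajc21 and Dnajc7 were added after results were seen. Coding identity used GENCODE M21 coding sequences; Cct6a was left out of it.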

Additional observations from a re-analysis of the deposited data

How the results depend on the processing

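edgeR with group alone called 235 genes, with 1 of the 36 higher and 1 lower. DESeq2 called 598 genes, 1 of the 36 higher and 4 lower. Library totals alone gave 353 genes, 0 higher and 3 lower (17.3% of all calls were higher, against 47.2% with edgeR and TMM). limma on log2(FPKM + 1) gave 39 genes, 17.9% of them higher, and no filter 22, both with 0 of the 36 in each direction; edgeR with the CT010467 and Lars2 share as a covariate gave 3 genes and likewise 0 in each direction. Removing CT010467 and Lars2 gave 241 genes, with 1 of the 36 higher (Cryab) and 2 lower. The cause of these differences was not tested. Deviations of same-numbered libraries from their group means had correlations of 0.0729, 0.0898 and 0.0606. Those of unlike number ran from −0.183 (mitochondria 1 with control 2) to 0.121 (mitochondria 1 with control 3). With 3 libraries per group, these values cannot tell whether the numbers pair the libraries. The replicate block called 394 genes, with 1 of the 36 higher (Cryab) and 3 lower. The 3 lower were Hsp90ab1, Hsp90aa1 (adjusted p = 0.0132) and Cct2 (0.0465, both by edgeR). Leaving out 1 library gave 68 to 233 genes, with 0 to 1 higher and 0 to 1 lower.

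Signs turned for 9 genes in such fits, with log2 fold changes of −0.10 to 0.073 (Hsf2), −0.043 to 0.040 (Cdc37), −0.12 to 0.062 (Hspa1a), −0.00027 to 0.18 (Hspa1b), −0.40 to 0.023 (Hspa2), −0.040 to 0.0088 (Hspa14), −0.037 to 0.080 (Dnajb6), −0.068 to 0.018 (Cct3) and −0.040 to 0.017 (Cct7). They also turned for Stip1 (−0.027), Cdc37 (−0.050) and Dnajb6 (−0.041) under limma, for Stip1 (−0.012), Cdc37 (−0.037) and Dnajb6 (−0.033) under library totals, and for Hsf1 (0.021), Hsf2 (0.20), Ahsa1 (0.0020), Cdc37 (−0.038), Hspa1a (0.099) and Hspa14 (0.039) with the covariate. None of these genes was called in any setting. Over the 42 genes fitted and named, 338 values in the 9 other settings kept their sign and side of the threshold, 11 gained a call and 10 lost one; with 1 library left out, 223 kept both, 1 gained and 13 lost a call. Depth limits Hspb8, at 41 to 71 counts.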

Other observations

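The table holds 25 further genes that its descriptions name as members of the DnaJ heat shock protein family and that no list above contains; they were picked after results were known. Of these, 17 were tested and none was called by edgeR or DESeq2, with 2 higher and 1 lower at an unadjusted p under 0.05, beside 7.82% higher and 8.28% lower over all tested genes. Their median log2 fold change was −0.02, with a range of −0.27 to 0.28. The 3 were Dnajc10, a J-domain protein of the endoplasmic reticulum with disulfide reductase activity, Dnajc4 and Dnajc24, which takes part in diphthamide synthesis. Dnajc10 had 225, 235 and 236 CPM in the mitochondria libraries, against 214, 223 and 216 CPM in the control libraries, with a log2 fold change of 0.09. Dnajc4 had 12.4, 12.2 and 12.1 CPM in the mitochondria libraries, against 11.3, 10.1 and 8.84 CPM in the control libraries, with a log2 fold change of 0.28. Dnajc24 had 8.05, 8.04 and 9.08 CPM in the mitochondria libraries, against 10.0, 10.4 and 10.1 CPM in the control libraries, with a log2 fold change of −0.27. For each of these 3 genes, and for no other of the 17, the groups did not overlap, beside 21.1% of all tested genes.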
